A study of Mus musculus with 12 samples.

Results

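Splicing factors and neuronal RNA-binding proteins were followed in migrating cortical interneurons of the mouse embryo. The genes were taken by symbol from the families Srsf, Hnrnp, Ptbp, Nova, Rbfox, Khdrbs, Qk, Mbnl, Celf, Elavl, Msi, Igf2bp and Pum. Of the 11358 genes with a probe set of their own on the Affymetrix Mouse430_2 arrays, 60 belonged to these families, and each was read by its brightest probe set over all 12 arrays. Dim genes were left out: a gene entered the tests only where 3 or more arrays read it above their own 40th percentile, which stood at 7.10 to 7.17 on the log2 scale, and 57 of the 60 did so. Celf6 and Mbnl3 passed this level on 0 arrays and Srsf12 on 2 arrays, so these 3 genes were not tested.

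The cells were purified by fluorescence from pooled embryonic cortices, and each of the 4 groups had 3 arrays whose titles call them biological replicas. MGE cells, which derive from the medial ganglionic eminence, came from Nkx2-1-Cre;R26R-YFP embryos at E18.5 and at E14.5. CGE cells, which derive mainly from the caudal and lateral eminences, came from Nkx2-1-Cre;Dlx1-lox-Venus-lox embryos at E18.5 and at E16.5. All mice were on a mixed C57BL/6 and CBA background and all carried Nkx2-1-Cre. In the MGE cells this Cre switches on the yellow reporter for good in any cell with a history of Nkx2-1, glia included, whereas in the CGE embryos it removes a Venus reporter driven by Dlx1, so the 2 lineages were also marked by different transgenes. The groups were compared by lineage at the late age (both E18.5) and at the early age (MGE E14.5 against CGE E16.5, where lineage and day cannot be told apart), and by age within each lineage, here called maturation. The name stands for the difference in day only and not for a state of the neurons. The sources used here do not give the number of embryos or litters that went into an array.

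RNA-binding proteins of these families act after transcription. SR proteins and hnRNPs help or hinder the choice of splice sites in every cell, while NOVA, RBFOX, PTBP, KHDRBS, MBNL and CELF proteins bind short motifs near alternative exons and set the neuronal pattern of splicing. ELAVL, MSI, IGF2BP and PUM proteins act chiefly on the stability and translation of mRNA, and Quaking does both and is best known from oligodendrocytes.

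The lineage genes followed the labels. Lhx6, the transcription factor of MGE interneurons, averaged 12.62 in MGE E18.5 and 12.91 in MGE E14.5 cells against 10.65 in CGE E18.5 and 10.77 in CGE E16.5 cells, so it was lower in CGE cells without being near the bottom of the scale. Sp8, a factor of CGE cells, averaged 4.54 in MGE E18.5 and 4.31 in MGE E14.5 cells against 12.02 in CGE E18.5 and 11.91 in CGE E16.5 cells. Other cell types moved with the groups. The summed level of 12 oligodendrocyte precursor markers lay between 14.58 and 15.17 in MGE E18.5 cells, against 12 to 12.22 in MGE E14.5, 11.63 to 12.29 in CGE E18.5 and 11.67 to 12.05 in CGE E16.5 cells, and 10 of the 11 tested rose in MGE maturation. Of 9 radial glia and astrocyte markers tested, 6 also rose there. Of 7 pan-interneuron markers, 6 fell in MGE maturation. Of 8 neuron maturity markers, with the member Rbfox3 among them, 0 rose and 4 fell in MGE maturation (50%, against 21.2% of all genes). In CGE maturation 0 rose and 2 fell (25%, against 10.9%). Their summed level lay at 14.83 to 15.03 in MGE E18.5, 15.37 to 15.41 in MGE E14.5, 15.09 to 15.19 in CGE E18.5 and 15.31 to 15.34 in CGE E16.5 cells. Of 11 tested cell cycle genes, 5 rose in MGE and 10 in CGE maturation, with summed levels of 12.93 to 13.29 in MGE E18.5, 12 to 12.22 in MGE E14.5, 13.41 to 14.32 in CGE E18.5 and 11.72 to 12.81 in CGE E16.5 cells. The 14.32 belonged to CGE E18.5 replicate 2. The summed level of 5 markers of the lateral eminence and olfactory lineage was higher in CGE cells. It lay at 10.67 to 10.83 in MGE E18.5, 9.84 to 10.02 in MGE E14.5, 12.46 to 13.41 in CGE E18.5 and 11.01 to 12.59 in CGE E16.5 cells. The 12.59 belonged to CGE E16.5 replicate 1. Of the 4 tested, 3 were lower in MGE cells at E18.5 (75%, against 22.8% of all genes) and 2 in the early comparison (50%, against 10%). The summed level of 4 microglia markers lay at 8.69 to 9.48 in MGE E18.5, 6.40 to 7.04 in MGE E14.5, 8.76 to 9.79 in CGE E18.5 and 7.18 to 8.05 in CGE E16.5 cells. Of 7 markers of the pallial glutamatergic lineage, Neurod1, Eomes, Slc17a6 and Emx1 stayed under the filter level on all 12 arrays, whereas Neurod2, Neurod6 and Tbr1 did not, and their summed level lay at 8.55 to 9.62, 8.89 to 9.94, 8.04 to 9.01 and 9.10 to 10.03 in the same 4 groups. The 2 tested, Neurod2 and Neurod6, were called in 0 comparisons, with a median difference of -0.72 in MGE and -1.34 in CGE maturation. Since the RNA is from whole sorted populations, fewer cells of a type and less RNA per cell cannot be told apart, and the part of these other cell types in the results below was not tested.

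**Figure D1:**
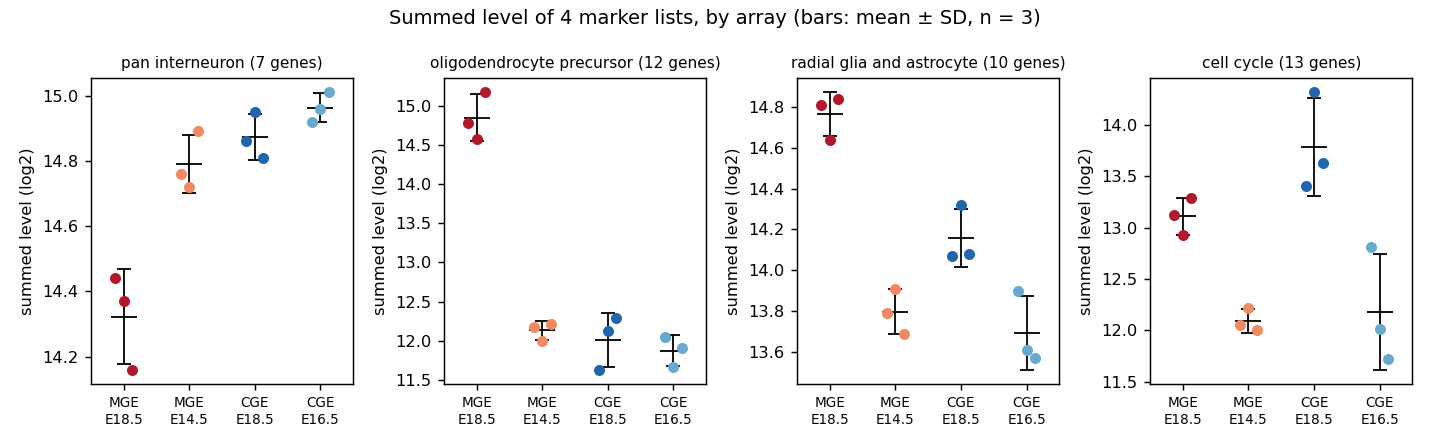
Summed level (log2 of the summed linear values) of 4 marker lists on each array, by group; points are arrays and bars give mean ± SD (n = 3). Oligodendrocyte precursor markers reached 14.58 to 15.17 in MGE E18.5 cells and stayed at or under 12.29 in the other 3 groups, and cell cycle genes were highest on CGE E18.5 replicate 2 (14.32).

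Most members read close to the same level in all 4 groups. In the late lineage comparison 8 of the 57 tested members were called (14%), 4 higher and 4 lower in MGE cells, where limma called 22.8% of all 8791 tested genes at an adjusted p under 0.05, 13% higher and 9.85% lower. In MGE maturation 10 members were called (17.5%), 4 higher and 6 lower at E18.5, against 21.2% of all genes, 11.4% higher and 9.77% lower. In CGE maturation 6 were called (10.5%), 3 in each direction, against 10.9% of all genes, 4.52% higher and 6.39% lower. In the early comparison 4 were called (7.02%), 2 in each direction, against 10% of all genes, 4.15% higher and 5.89% lower. The shares of members called were thus near or under those of all genes in each comparison. The median absolute difference was 0.14 for members and 0.25 for all genes in the late comparison, 0.18 and 0.25 in MGE maturation, 0.14 and 0.21 in CGE maturation, and 0.14 and 0.19 in the early comparison. The members were also steadier between replicates, with a median SD within groups of 0.125 on the log2 scale against 0.205 over all genes. Members and all genes were not matched for brightness in these figures. The group means of the Hnrnp members, for instance, lay between 9.84 and 14.30, against array medians of 7.75 to 7.81. The 2 groups compared did not overlap for 33.3% of the members in the late comparison, against 36.8% of all genes. In MGE maturation this held for 54.4% against 47.8%, in CGE maturation for 22.8% against 25.5%, and in the early comparison for 33.3% against 33%. A lack of overlap between 2 groups is thus common, and is given below as a description. The comparisons share arrays, since each group enters more than 1 of them.

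**Figure D2:**
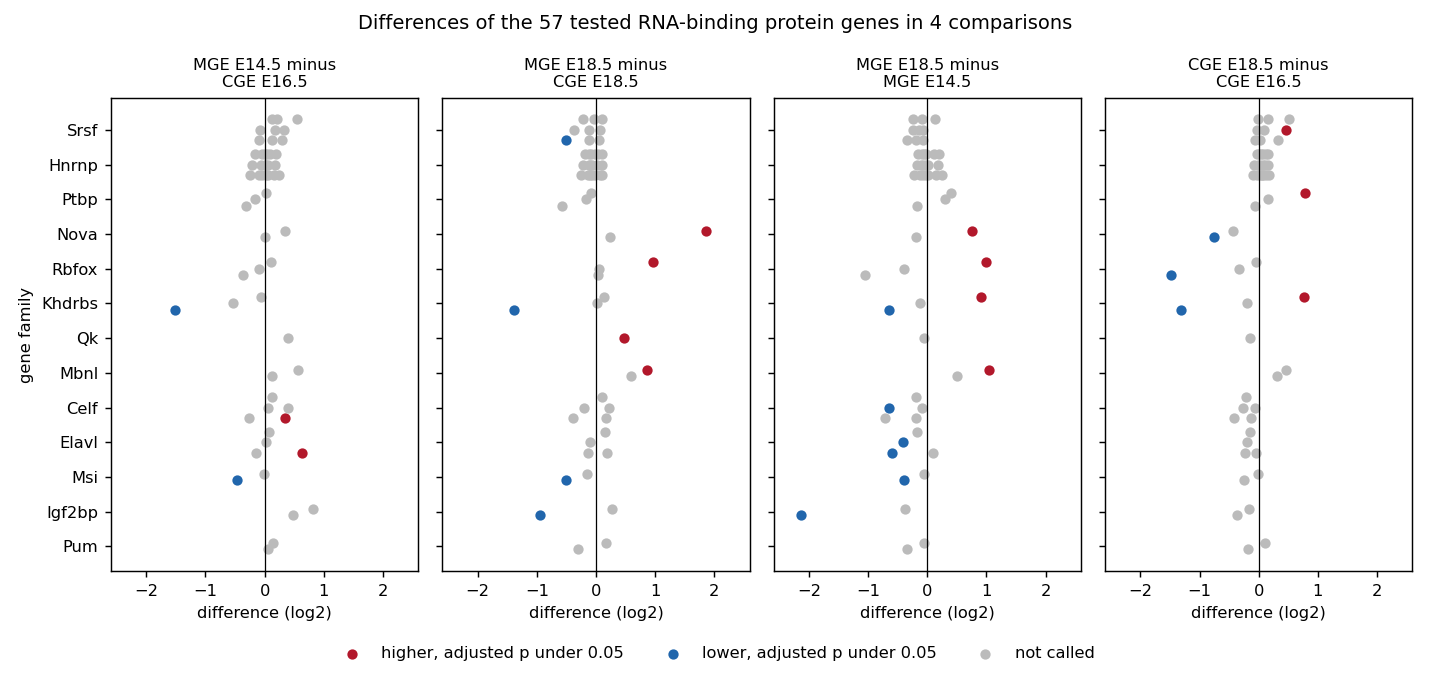
Difference (log2) of each of the 57 tested members in the 4 comparisons, by gene family; each point is a gene, red or blue where called higher or lower by limma and grey where not. The Hnrnp members stay between -0.26 and 0.24 throughout, and the points at or past 1 in either direction belong to Nova1, Khdrbs3, Khdrbs2, Rbfox1, Rbfox3, Mbnl1 and Igf2bp1.

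Few of the general splicing factors were called, and the Hnrnp members hardly moved by their brightest probe sets. Of the 19 Hnrnp members, whose group means lay between 9.84 and 14.30, 0 were called in any of the 4 comparisons, and their differences ran between -0.26 and 0.11 in the late comparison, -0.22 and 0.24 in MGE maturation, -0.09 and 0.17 in CGE maturation, and -0.24 and 0.24 in the early comparison. At an unadjusted p under 0.05 the limma fit gave 1 of the 19 in the early comparison and 0 in the other 3. The 95% interval of the difference lay wholly within 0.5 of 0 on the log2 scale for 17 or 18 of the 19 in each comparison. Other probe sets departed for Hnrnpu, where 1 was 1.36 lower in MGE cells at E18.5 (adjusted p = 0.00698 over probe sets) and 1.38 higher in CGE maturation and another was 0.41 lower in MGE cells at E18.5, and for Hnrnpd, where 1 was 0.75 higher in MGE cells at E18.5. Of the 9 tested Srsf members, only Srsf2 was called by its brightest probe set. Their differences ran between -0.50 and 0.10 in the late comparison and -0.35 and 0.13 in MGE maturation. In CGE maturation they ran between -0.06 and 0.52, and in the early comparison between -0.10 and 0.55. The 95% interval lay wholly within 0.5 of 0 for only 5 or 6 of the 9 in each comparison, so an absent call need not mean a steady level. Srsf2 (SC35), an SR protein that helps define exons, read 11.73, 11.5 and 11.59 in MGE E18.5 cells and 11.93, 11.90 and 11.73 in MGE E14.5 cells, against 12.06, 12.19 and 12.07 in CGE E18.5 cells and 11.61, 11.86 and 11.45 in CGE E16.5 cells. Every CGE E18.5 array was above every other array. Srsf2 was lower by 0.50 ± 0.13 (log2, SE) in MGE than in CGE cells at E18.5 (limma adjusted p = 0.0140) and rose by 0.46 in CGE maturation (adjusted p = 0.0370), while its MGE maturation difference was -0.25 (95% interval -0.52 to 0.03). The probe set carries the suffix given to probe sets that match more than 1 transcript, and 2 other probe sets of Srsf2 gave late differences of -0.33 and -0.13, which were not called. The late call was lost without MGE E18.5 replicate 2 (-0.44), and the CGE maturation call without 7 of the 12 arrays in turn (0.37 to 0.48). Srsf11, an SR-related protein, was called in 0 comparisons by its brightest probe set, while another of its probe sets was 1.00 lower in MGE cells at E18.5 and fell by 1.14 in MGE maturation (adjusted p = 0.00717 over probe sets).

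PTBP1 holds back neuronal exons in progenitors and non-neuronal cells, and PTBP2 takes its place in young neurons. Ptbp1 read 8.66, 9.54 and 8.80 in CGE E18.5 cells against 8.05, 8.41 and 8.17 in CGE E16.5 cells, and 8.29, 8.56 and 8.45 in MGE E18.5 against 7.98, 8.19 and 7.93 in MGE E14.5 cells. By this brightest probe set the groups did not overlap in either lineage. Only the CGE rise was called, at 0.79 ± 0.20 (1.73-fold, limma adjusted p = 0.0291), and the MGE difference was 0.40 (adjusted p = 0.189). The highest array, CGE E18.5 replicate 2, was also the array with the highest cell cycle level. Without it the rise was 0.53 (adjusted p = 0.0630), and the call was likewise lost without CGE E16.5 replicate 1 (0.71) or 3 (0.77). A dimmer probe set of Ptbp1 read 7.48 to 8.09 in CGE E18.5 cells against 6.63 to 7.14 in CGE E16.5 cells, the second range around or under the filter level. In MGE cells it read 6.77 to 7.24 at E18.5 against 7.09 to 7.19 at E14.5, with no rise. It was 0.72 lower in MGE cells at E18.5 (adjusted p = 0.0178 over probe sets), where the brightest differed by -0.57 (adjusted p = 0.0651). The difference between the maturations was -1.04 by the dimmer (adjusted p = 0.0328 over probe sets) and -0.39 by the brightest (adjusted p = 0.468). Ptbp2 stayed between 11.67 and 11.94 on every array, with differences of -0.18 (95% interval -0.40 to 0.05) in MGE and -0.06 (-0.29 to 0.17) in CGE maturation. Ptbp3 read 9.49 to 10.18 and was called in 0 comparisons.

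By the brightest probe sets, the largest lineage difference of any member at E18.5 was that of Nova1. Dimmer probe sets of Qk differed by more, as given below. NOVA1 is a KH-domain protein of neurons that binds clusters of YCAY motifs around exons. Nova1 read 8.85, 8.54 and 9.04 in MGE E18.5 cells and 8.27, 7.96 and 7.90 in MGE E14.5 cells, against 7.26, 6.83 and 6.76 in CGE E18.5 cells and 7.90, 7.83 and 7.37 in CGE E16.5 cells. Its level at E18.5 was thus the highest of the 4 groups in MGE cells and the lowest in CGE cells, with no overlap of either with the earlier age. The lineage difference at E18.5 was 1.86 ± 0.19 (3.62-fold, limma adjusted p = 2.7e-05), against 0.34 ± 0.19 in the early comparison (adjusted p = 0.325). Nova1 rose by 0.76 in MGE maturation (adjusted p = 0.0154) and fell by 0.75 in CGE maturation (adjusted p = 0.0300), and the difference between these changes was 1.51 ± 0.27 (95% interval 0.92 to 2.11, adjusted p = 0.00412). Over all genes 8.62% were called for such a difference, 6.75% higher and 1.88% lower, and over the members 3 of 57, of which Nova1 was higher and Igf2bp1 and Srsf2 were lower. By the brightest probe set of Nova1, CGE E18.5 replicates 2 and 3 (6.83 and 6.76) lay under the filter level and replicate 1 (7.26) just above it. The CGE fall, the lineage difference at E18.5 and the difference between the changes thus rest on a group near that level. The second probe set of Nova1 was above the filter level in MGE E18.5 cells only (7.89 to 8.68, against 6.66 to 6.92 in MGE E14.5, 5.64 to 6.16 in CGE E18.5 and 5.86 to 6.54 in CGE E16.5 cells), so it bears on neither change. The MGE rise was not called without MGE E14.5 replicate 2 or 3 or MGE E18.5 replicate 3 (0.65 to 0.72), nor the CGE fall without CGE E16.5 replicate 1 or 2 or CGE E18.5 replicate 2 or 3 (-0.65 to -0.69). Nova2, its paralogue, read 8.85 to 9.85 and was called in 0 comparisons, with a late lineage difference of 0.23 (95% interval -0.24 to 0.71).

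**Figure D3:**
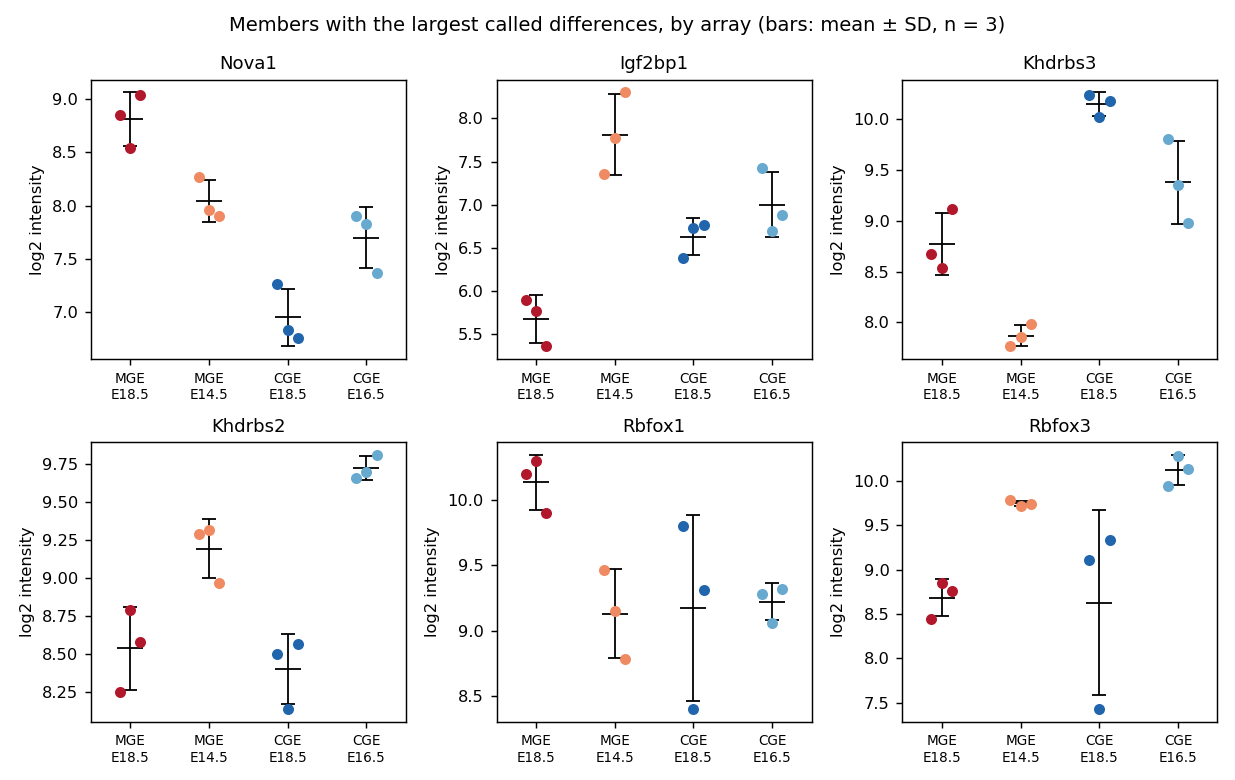
Values (log2 intensity) of 6 members on each array, by group; points are arrays and bars give mean ± SD (n = 3), and each panel has its own axis. Nova1 is highest in MGE E18.5 (8.54 to 9.04) and lowest in CGE E18.5 cells (6.76 to 7.26), Igf2bp1 is lowest in MGE E18.5 cells (5.36 to 5.90), and CGE E18.5 replicate 2 lies apart for Rbfox1 (8.40) and Rbfox3 (7.43).

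RBFOX proteins bind GCATG and promote or block exons by their position, and RBFOX3 is the antigen known as NeuN that marks postmitotic neurons. Rbfox1 read 10.20, 10.30 and 9.90 in MGE E18.5 cells and 9.46, 9.15 and 8.78 in MGE E14.5 cells, against 9.80, 8.40 and 9.31 in CGE E18.5 cells and 9.28, 9.06 and 9.32 in CGE E16.5 cells. All MGE E18.5 arrays were above all others. Rbfox1 rose by 1.00 ± 0.29 in MGE maturation (2.00-fold, limma adjusted p = 0.0317) and was 0.97 higher in MGE than in CGE cells at E18.5 (adjusted p = 0.0337), while CGE maturation gave -0.05 (95% interval -0.69 to 0.59). The late value was 0.58 without CGE E18.5 replicate 2 (adjusted p = 0.0872), and was not called without MGE E18.5 replicate 1 or 2 or CGE E18.5 replicate 3 either (0.88 to 1.04). The MGE rise was not called without MGE E14.5 replicate 2 or 3 or any 1 of the MGE E18.5 arrays (0.83 to 1.12), and the test of a difference between the maturations gave 1.05 (adjusted p = 0.156). The 2 other tested probe sets of Rbfox1 rose by 0.66 and 0.74 in MGE maturation, neither called. With the mean over probe sets the rise was 0.80 (adjusted p = 0.0522). At E18.5 these 2 gave lineage differences of 0.89 and 1.38, of which 1 was called.

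Rbfox3 ran lower at E18.5 in both lineages. It read 8.45, 8.85 and 8.76 in MGE E18.5 cells against 9.78, 9.72 and 9.74 in MGE E14.5 cells, and 9.11, 7.43 and 9.34 in CGE E18.5 cells against 9.94, 10.28 and 10.14 in CGE E16.5 cells. Neither pair of groups overlapped. The fall was called in CGE maturation, at -1.49 ± 0.38 (2.81-fold, limma adjusted p = 0.0284), and became -0.89 (adjusted p = 0.0129) without CGE E18.5 replicate 2. It was not called without CGE E16.5 replicate 2 (-1.41) or 3 (-1.48). In MGE maturation the brightest probe set differed by -1.06 (adjusted p = 0.0669), and the next brightest fell by 0.94 (adjusted p = 0.00126 over all 16000 probe sets), and by 1.17 in CGE maturation. The dimmest tested probe set read 6.83 to 7.08 in MGE E18.5 cells, under the filter level, against 7.57 to 7.88 in MGE E14.5 cells. Rbfox2, which is also widely used outside neurons, read 10.58 to 11.34 with maturation differences of -0.40 in MGE and -0.34 in CGE cells, neither called by this probe set. A second probe set of Rbfox2 fell by 0.52 in MGE maturation (adjusted p = 0.00770 over probe sets).

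The promoter windows of Nova1, Rbfox1, Rbfox3 and Khdrbs2 are given as examples of the sequence at annotated starts. They were chosen after the values were seen, from the members called in a maturation comparison, and other such members are not shown. Windows run from 250 bases before to 50 after a RefSeq start in GRCm38.p6 and are written 5′ to 3′ on the gene's strand, and capitals mark CAGCTG, an E-box that basic helix-loop-helix factors bind. Both CAGCTG and TAATTA, a core that many homeodomain factors bind, were searched. Each reads the same on both strands, and they do not overlap each other. The table matched 51 of the 60 members with 92 windows of 300 bases; Khdrbs3 and Igf2bp1 were not matched.
Nova1 (chr12:46818718-46819017, minus strand): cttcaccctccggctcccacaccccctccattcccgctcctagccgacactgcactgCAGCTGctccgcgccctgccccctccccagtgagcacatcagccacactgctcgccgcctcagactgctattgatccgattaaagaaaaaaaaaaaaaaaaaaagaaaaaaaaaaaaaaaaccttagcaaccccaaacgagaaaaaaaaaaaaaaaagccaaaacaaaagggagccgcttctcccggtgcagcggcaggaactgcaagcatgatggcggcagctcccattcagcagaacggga
Rbfox1 (chr16:5884543-5884842, plus strand): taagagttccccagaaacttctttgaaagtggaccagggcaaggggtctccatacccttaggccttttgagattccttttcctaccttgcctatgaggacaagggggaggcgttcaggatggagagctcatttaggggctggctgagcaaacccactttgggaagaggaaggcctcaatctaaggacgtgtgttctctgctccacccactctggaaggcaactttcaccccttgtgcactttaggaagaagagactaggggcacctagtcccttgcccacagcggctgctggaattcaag
Rbfox1 (chr16:7069585-7069884, plus strand): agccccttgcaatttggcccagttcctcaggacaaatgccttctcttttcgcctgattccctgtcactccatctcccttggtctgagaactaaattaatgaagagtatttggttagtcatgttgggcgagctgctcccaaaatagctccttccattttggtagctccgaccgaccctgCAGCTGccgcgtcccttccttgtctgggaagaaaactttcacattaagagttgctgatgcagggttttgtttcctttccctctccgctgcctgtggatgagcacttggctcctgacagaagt
Rbfox3 (chr11:118760992-118761291, minus strand): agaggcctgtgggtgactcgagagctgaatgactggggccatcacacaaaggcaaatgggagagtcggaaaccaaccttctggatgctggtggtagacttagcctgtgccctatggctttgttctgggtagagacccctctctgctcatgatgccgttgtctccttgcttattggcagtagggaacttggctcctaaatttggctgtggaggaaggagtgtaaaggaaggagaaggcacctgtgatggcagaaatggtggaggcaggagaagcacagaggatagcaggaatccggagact
Khdrbs2 (chr1:32172472-32172771, plus strand): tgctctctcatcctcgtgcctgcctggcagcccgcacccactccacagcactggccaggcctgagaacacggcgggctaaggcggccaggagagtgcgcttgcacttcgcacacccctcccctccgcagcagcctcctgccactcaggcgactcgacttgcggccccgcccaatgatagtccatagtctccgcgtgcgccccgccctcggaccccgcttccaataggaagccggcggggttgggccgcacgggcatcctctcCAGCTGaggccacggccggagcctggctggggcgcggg
CAGCTG stood once in the windows of Nova1 and Khdrbs2 and in the second window of Rbfox1, and TAATTA in 0 of the 5 windows. Over the windows of all members CAGCTG was present in 21.7%, against 16.3% of all 32851 windows, and TAATTA in 4.35% against 5.29%. The median GC content was 64.0% for members and 52.7% for all windows. The arrays do not resolve which start was used, and a match describes letters only.

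The STAR-domain proteins of the Khdrbs family regulate alternative exons of neurexin genes. Khdrbs3 (SLM2) was lower in MGE than in CGE cells at both ages. It read 8.67, 8.53 and 9.11 in MGE E18.5 cells against 10.24, 10.02 and 10.18 in CGE E18.5 cells, and 7.77, 7.86 and 7.98 in MGE E14.5 cells against 9.80, 9.35 and 8.98 in CGE E16.5 cells. No group of one lineage overlapped the group it was set against. The difference was -1.38 ± 0.20 at E18.5 (2.59-fold lower in MGE cells, limma adjusted p = 4.2e-04) and -1.51 ± 0.20 in the early comparison (2.84-fold lower, adjusted p = 4.6e-04). Khdrbs3 rose with age in both lineages, by 0.90 in MGE (adjusted p = 0.00843) and 0.77 in CGE cells (adjusted p = 0.0320), and the difference between these rises was 0.13 (95% interval -0.49 to 0.75). The CGE rise was not called without CGE E16.5 replicate 2 or 3 or any 1 of the CGE E18.5 arrays (0.57 to 0.83).

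Khdrbs2 (SLM1) moved the other way. It read 8.25, 8.79 and 8.58 in MGE E18.5 cells against 9.29, 9.32 and 8.97 in MGE E14.5 cells, and 8.5, 8.14 and 8.57 in CGE E18.5 cells against 9.66, 9.70 and 9.81 in CGE E16.5 cells. It was lower on every E18.5 array than on any earlier array. The fall was -1.32 ± 0.16 in CGE maturation (2.50-fold, limma adjusted p = 0.00160), and was called without any single array. In MGE maturation it was -0.65 (adjusted p = 0.0154), and not called without MGE E14.5 replicate 1 or 2 or MGE E18.5 replicate 1 (-0.51 to -0.60). At E18.5 the lineage difference was 0.14 (95% interval -0.22 to 0.50). Khdrbs2 and Khdrbs3 had 1 probe set each, so no other probe set could be set beside it. That of Khdrbs2 carries the same suffix as the brightest probe set of Srsf2. Khdrbs1 (SAM68), which is present in most cells, read 12.41 to 12.94 by its brightest probe set and was called in 0 comparisons. One of its 6 probe sets departed from the others, with 8.15, 8.04 and 7.57 in MGE E18.5 cells against 9.26, 9.23 and 9.22 in CGE E18.5 cells, a difference of -1.32 (adjusted p = 4.2e-04 over probe sets).

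Quaking gave different readings by probe set. Its brightest probe set read 12.43, 12.23 and 12.38 in MGE E18.5 cells and 12.32, 12.41 and 12.49 in MGE E14.5 cells, against 11.93, 12 and 11.68 in CGE E18.5 cells and 11.86, 12.07 and 12.11 in CGE E16.5 cells. It was 0.47 ± 0.12 higher in MGE cells at E18.5 (1.39-fold, limma adjusted p = 0.0143; 0.43 and not called without MGE E18.5 replicate 1), and MGE maturation gave -0.06 (95% interval -0.32 to 0.20). Of the 3 other tested probe sets, 2 rose steeply. One read 10.83, 10.59 and 11.18 in MGE E18.5 cells and 8.62, 8.84 and 8.51 in MGE E14.5 cells, against 7.87, 8.42 and 8.16 in CGE E18.5 cells and 7.57, 8.38 and 7.25 in CGE E16.5 cells. Its MGE E18.5 arrays were above all others, and its MGE E14.5 arrays above every CGE array. It was 0.92 higher in MGE cells in the early comparison (adjusted p = 0.0475 over probe sets) and 2.72 higher at E18.5. It rose by 2.21 in MGE maturation (adjusted p = 1.1e-04 over probe sets) against 0.41 in CGE maturation (adjusted p = 0.343), and the difference between the maturations was 1.80 (adjusted p = 0.00991). The other rose by 1.80 in MGE maturation (adjusted p = 1.9e-04) and was 2.04 higher in MGE than in CGE cells at E18.5. The remaining tested probe set was 0.93 higher in MGE cells at E18.5 (adjusted p = 5.5e-04) with an MGE maturation difference of 0.14. Which Qk transcripts each probe set reads was not determined here. Of the 12 oligodendrocyte precursor markers, Sox10 averaged 10.80 in MGE E18.5 cells against 6.21 in MGE E14.5, 4.67 in CGE E18.5 and 4.62 in CGE E16.5 cells, and its part in the Qk values was not tested.

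**Figure D4:**
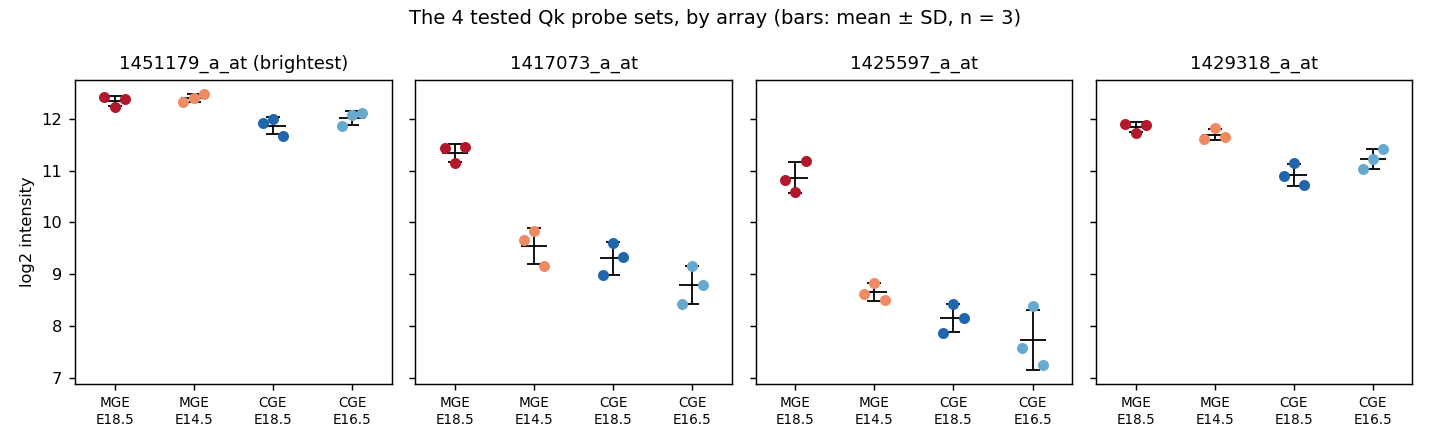
Values (log2 intensity) of the 4 tested Qk probe sets on each array, by group; points are arrays and bars give mean ± SD (n = 3). The brightest probe set stays between 11.68 and 12.49, while the 2 probe sets in the middle are higher in MGE E18.5 cells than in every other group.

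MBNL and CELF proteins act on many of the same exons and often in opposite directions, with MBNL proteins favouring the forms of mature tissue. Mbnl1 read 8.87, 8.77 and 8.85 in MGE E18.5 cells and 7.95, 7.92 and 7.5 in MGE E14.5 cells, against 7.75, 7.69 and 8.46 in CGE E18.5 cells and 7.20, 7.91 and 7.86 in CGE E16.5 cells. MGE E18.5 arrays were above all others. It rose by 1.04 ± 0.23 in MGE maturation (2.06-fold, limma adjusted p = 0.00843) and was 0.86 higher in MGE cells at E18.5 (adjusted p = 0.0191), although the late call was lost without MGE E18.5 replicate 1 or 3 or CGE E18.5 replicate 1 or 2 (0.72 to 0.85). A dimmer probe set was 1.14 higher in MGE cells at E18.5. Its MGE maturation difference was only 0.20 and its CGE maturation difference -0.80 (adjusted p = 0.0102 over probe sets). In CGE E18.5 cells it read 7.01 to 7.44, around the filter level, so its lineage difference and CGE fall rest on a group near that level. The probe sets thus differed on the size of the MGE rise. Mbnl2 was called in 0 comparisons, with differences of 0.50 in MGE and 0.47 in CGE maturation.

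Among the Celf members, Celf5, a brain-enriched protein, read 11.29, 11.34 and 11.07 in MGE E18.5 cells against 11.87, 11.94 and 11.79 in MGE E14.5 cells, and fell by 0.64 ± 0.15 (limma adjusted p = 0.0120; -0.56 and not called without MGE E18.5 replicate 3). CGE maturation gave -0.41 (adjusted p = 0.110). Celf2 was 0.34 ± 0.09 higher in MGE E14.5 than in CGE E16.5 cells (adjusted p = 0.0351), a call that was lost without any 1 of 7 arrays (0.31 to 0.36), without the arrays of the other groups in the fit (adjusted p = 0.0566) and with the replica number as a block (adjusted p = 0.0602). Of its 4 other tested probe sets, 3 were also called higher there, by 0.95, 0.42 and 1.17. The first of these was also 0.81 higher in MGE cells at E18.5 (adjusted p = 0.00181 over probe sets) and the second 0.37 higher (adjusted p = 0.0197), while the last read -0.38 at E18.5 and fell by 0.90 in MGE maturation (adjusted p = 0.0487). Celf1, Celf3 and Celf4 were called in 0 comparisons. Celf3 was the noisiest of them, with 7.42 to 8.39 in MGE E18.5, 8.28 to 8.70 in MGE E14.5, 8.06 to 8.23 in CGE E18.5 and 7.59 to 9.12 in CGE E16.5 cells.

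The neuronal Elavl proteins bind AU-rich elements and stabilise neuronal mRNAs, and Elavl1 (HuR) does so in most cells. Elavl2 (HuB) read 12.07, 11.97 and 11.77 in MGE E18.5 cells and 12.50, 12.52 and 12.57 in MGE E14.5 cells, against 11.75, 11.82 and 11.71 in CGE E18.5 cells and 11.86, 11.88 and 11.94 in CGE E16.5 cells. MGE E14.5 cells stood above the other 3 groups. Elavl2 fell by 0.60 ± 0.10 in MGE maturation (1.51-fold, limma adjusted p = 0.00177) and was 0.64 higher in MGE cells in the early comparison (1.55-fold, adjusted p = 0.00187), and its 3 other probe sets gave 0.55 to 0.66 there and -0.59 to -0.74 in MGE maturation, all called. Elavl4 (HuD) read 11.21, 11.19 and 10.99 in MGE E18.5 cells against 11.54, 11.62 and 11.46 in MGE E14.5 cells and fell by 0.41 (adjusted p = 0.0174), which was not called without MGE E14.5 replicate 1 or 2 or MGE E18.5 replicate 3 (-0.34 to -0.41). The 2 other tested probe sets of Elavl4 gave -0.29 and -0.22 there, neither called. By their brightest probe sets Elavl1 and Elavl3 were called in 0 comparisons, with MGE maturation differences of 0.09 and -0.18. Another probe set of Elavl1 fell by 0.49 in MGE maturation (adjusted p = 0.0246 over probe sets), and another of Elavl3 by 0.63 in CGE maturation (adjusted p = 0.0409).

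Musashi proteins repress translation in neural stem and progenitor cells. Msi2 read 11.21, 11.01 and 11.27 in MGE E18.5 cells against 11.52, 11.55 and 11.92 in CGE E18.5 cells, and 11.15, 11.17 and 11.31 in MGE E14.5 cells against 11.64, 11.71 and 11.69 in CGE E16.5 cells. Every MGE array was below every CGE array. The difference was -0.50 ± 0.13 at E18.5 (limma adjusted p = 0.0145) and -0.47 ± 0.13 in the early comparison (adjusted p = 0.0379). The early call was lost without any 1 of 7 arrays (-0.44 to -0.52), and the late call without MGE E18.5 replicate 2 (-0.42). Msi1 fell by 0.39 ± 0.10 in MGE maturation (adjusted p = 0.0142; -0.38 and not called without MGE E14.5 replicate 1), with 11.49, 11.41 and 11.48 in MGE E18.5 cells against 11.89, 11.77 and 11.91 in MGE E14.5 cells, and CGE maturation gave -0.25 (adjusted p = 0.127). The 2 other tested probe sets of Msi1 gave -1.04 and -0.47 in MGE maturation, neither called.

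Igf2bp1 (ZBP1) is a fetal protein that carries and protects mRNAs such as that of beta-actin. It read 5.90, 5.77 and 5.36 in MGE E18.5 cells and 7.36, 7.77 and 8.30 in MGE E14.5 cells, against 6.38, 6.73 and 6.77 in CGE E18.5 cells and 7.42, 6.70 and 6.88 in CGE E16.5 cells. MGE E18.5 arrays were below all others and MGE E14.5 cells were the highest group, with 1 CGE E16.5 array among them. It passed the filter on only 4 of the 12 arrays, those of MGE E14.5 and 1 of CGE E16.5, and a gene that entered through its highest group was bound to differ from the others, so its differences are given as a description. They were -2.13 ± 0.25 in MGE maturation, -0.37 ± 0.25 in CGE maturation, -1.76 ± 0.36 between these changes and -0.95 between the lineages at E18.5, where all 6 arrays lay under the filter level. Igf2bp3 read 9.07 to 10.12 and its brightest probe set was called in 0 comparisons, with -0.37 in MGE maturation, where its second brightest probe set fell by 0.53 (adjusted p = 0.0311 over probe sets) and was 0.53 higher in MGE cells in the early comparison (adjusted p = 0.0476). Pum2, a translational repressor, read 11.26 to 11.72 and Pum3, a nucleolar relative, 10.08 to 11.31, and neither was called in any comparison.

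By role, 14 of the 15 neuronal members (Nova, Rbfox, Ptbp2, Elavl2 to Elavl4, Celf3 to Celf6, Khdrbs2 and Khdrbs3) were tested. In MGE maturation 3 rose and 4 fell (50%, against 21.2% of all genes), with a median difference of -0.30 against -0.06 over all genes, and in CGE maturation 1 rose and 3 fell (28.6%, against 10.9%), with a median of -0.25 against -0.07. Of the 6 progenitor and glial members in the table (Ptbp1, Msi1, Msi2, Qk, Igf2bp1 and Igf2bp3), 0 rose and 2 fell in MGE maturation (33.3%), and 1 rose and 0 fell in CGE maturation (16.7%). Igf2bp1, given above as a description only, was among those that fell. All counts by role rest on the brightest probe sets. In MGE maturation other probe sets of Qk rose by 1.80 and 2.21, and others of Igf2bp3 fell by 0.53 to 0.81. With 14 and 6 tested genes, these shares are a description.

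Of 52 tested core spliceosome genes, 0 were called in MGE maturation and in the early comparison, where the limma fit gave 6 and 3 at an unadjusted p under 0.05. In CGE maturation 1 rose (1.92%, against 10.9% of all genes), the U6-associated Lsm8 (0.42, limma adjusted p = 0.0370), and at E18.5 3 were lower in MGE cells (5.77%, against 22.8%), namely the tri-snRNP protein Prpf3 (-0.67), the helicase Dhx16 (-0.66) and Lsm8 (-0.53). Of 8 tested kinases that phosphorylate SR proteins, Clk2, Clk3 and Srpk1 fell in MGE maturation, by 0.57, 0.44 and 0.43, and the same 3 were lower in MGE cells at E18.5, by 0.50, 0.74 and 0.53, which is 37.5% of the 8 in each comparison against 21.2% and 22.8% of all genes. Both comparisons use the MGE E18.5 arrays. In CGE maturation 0 of the 8 were called, with 1 at an unadjusted p under 0.05. Of 38 other tested splicing regulators, 0 rose and 4 fell in MGE maturation (10.5%, against 21.2% of all genes), among them Rbms1 (-1.63), Srrm3, a paralogue of the neuronal microexon regulator Srrm4 (-1.25), and Tia1 (-0.59), and 0 rose and 2 fell in CGE maturation (5.26%, against 10.9%), Rbms3 (-1.44) and Srrm4 (-0.52). At E18.5, with 7.89% called against 22.8% of all genes, Rbms3 was 1.71 higher, Rbms1 1.01 lower and Tia1 0.58 lower in MGE cells. In the early comparison (5.26%, against 10%) Srrm3 was 1.05 higher and Acin1 0.49 lower in MGE cells.

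Of 32 tested regulators of mRNA stability and translation outside the member families, 5 were called in MGE maturation (15.6%, against 21.2% of all genes), 3 in CGE maturation (9.38%, against 10.9%), 3 in the late comparison (9.38%, against 22.8%) and 1 in the early comparison (3.12%, against 10%). Most of the largest differences among them were those of the Zfp36 family, zinc-finger proteins that drive decay of AU-rich mRNAs. Zfp36l1 averaged 10.85 in MGE E18.5 cells and 6.94 in MGE E14.5 cells, against 6.73 in CGE E18.5 and 5.75 in CGE E16.5 cells, and Zfp36l2 averaged 9.85, 6.37, 7 and 5.78 in the same 4 groups. Their means in all groups but MGE E18.5 lay under the filter level, so these genes were bound to be higher in MGE E18.5 cells and their values are a description, with differences of 3.91 and 3.48 in MGE maturation and of 4.12 and 2.84 between the lineages at E18.5. Zfp36 averaged 8.87 in MGE E18.5, 7.21 in MGE E14.5, 9.08 in CGE E18.5 and 7.08 in CGE E16.5 cells, with both earlier means near the filter level. Cpeb2, a translational regulator, fell by 1.10 in CGE maturation and was 1.33 higher in MGE cells at E18.5. The oligodendrocyte precursor sum was highest in MGE E18.5 cells, as given above. The summed level of 10 radial glia and astrocyte markers lay at 14.64 to 14.84 in MGE E18.5, 13.69 to 13.91 in MGE E14.5, 14.07 to 14.32 in CGE E18.5 and 13.57 to 13.90 in CGE E16.5 cells, and the microglia sums stand above. The part of these cells in the Zfp36 family values was not tested.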

How the data were processed

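Total RNA of sorted MGE and CGE cells was amplified (NuGEN Ovation Pico) and hybridised to 12 Affymetrix Mouse430_2 arrays. The authors deposited log2 values that were already normalised, running from 3.23 to 14.97 with array medians of 7.75 to 7.81. MAS5 stands in the submitters' processing notes with no version, and the methods give Bioconductor and no algorithm, so the normalisation is not settled and no further one was applied. Of 27094 probe sets, 34 controls were left out, and the platform annotation gave the rest 1 symbol (22339), several (571) or none (4150). Of the probe sets with 1 symbol, 22269 were matched by Entrez identifier in a GRCm38.p6 RefSeq table, which changed 0 symbols. Probe sets that 3 or more arrays read above their own 40th percentile were kept (16000 with 1 symbol), and each gene took the kept probe set with the highest mean, which left 8791 genes.

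The model was a limma 3.58.1 fit (R 4.3.3) with 1 mean per group over all 12 arrays (8 residual degrees of freedom, to which moderation added 3.60). Two-sided p-values were Benjamini-Hochberg adjusted over the 8791 genes, and called means an adjusted p under 0.05. A separate fit over all 16000 kept probe sets, added after the data were seen, gives the values of single probe sets. Fold changes are on the array's log2 scale, which compresses changes of dim genes, and levels of different probe sets were not compared. The number of arrays limits the precision. In simulated data for MGE maturation over 8791 genes, the fit called 10 of 50 genes changed by 0.5, 39 of 50 by 1, 47 of 50 by 1.5 and 48 of 50 by 2 (log2). It also called 14 unchanged genes. Far fewer genes were changed there than the 21.2% called in the data, and the noise was drawn independently for each gene. These rates thus need not hold for the data.

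MGE E14.5 replicates 1 and 2 were the closest pair (r = 0.995, SD of the differences 0.231 against 0.375 to 0.518 for the other pairs) and were kept as separate samples, with their mean as an alternative. The members and lists were chosen with earlier results of these data known. Named in full were called members among the 12 largest differences of a comparison, all members outside Srsf and Hnrnp, and members whose lineage difference changed. Other members are given by counts and ranges, and other lists by counts and their 3 largest called differences. Of the alternatives, 23 settings were run: other filters, scalings, probe set rules, array weights, a trended prior, a replicate block, only the groups compared, and each array left out.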

Additional observations from a re-analysis of the deposited data

Results flagged for a closer look

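Of the 57 tested members, 3 changed differently with age in the 2 lineages by a limma test of the difference itself, against 8.62% of all genes. The MGE maturation difference exceeded the CGE one by 1.51 for Nova1 (adjusted p = 0.00412), and this was called under every one of the 22 settings in which it could be fitted (1.40 to 1.68). CGE E18.5 replicates 2 and 3 lay under the filter level for Nova1. The difference between the maturations was -1.76 for Igf2bp1, which was above the filter level on 4 arrays only and on none of MGE E18.5, so that its value is a description. It was -0.71 for Srsf2 (adjusted p = 0.0287), which was lost under 9 of 22 settings, and its 2 other probe sets gave -0.50 and -0.16, neither called. The lineages were sampled from different first days, E14.5 for MGE and E16.5 for CGE cells, so a difference between lineages and a difference in the span of days cannot be told apart. Since 8 members not called by their brightest probe set had another probe set called for the same difference, the choice of probe set matters here. They included Qk, with 1.29 and 1.80, and Khdrbs1, with -1.50.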

How the results depend on the processing

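Over 23 settings, the 31 called member values gave 707 alternative values, of which 609 kept their direction and call, 98 were no longer called and 0 reversed. Elavl2 (early comparison, MGE maturation), Khdrbs3 (early and late comparison, MGE maturation), Nova1 (late comparison and difference between maturations), Mbnl1 (MGE maturation) and Khdrbs2 (CGE maturation) were called under all of theirs, as was Igf2bp1 (MGE maturation and difference between maturations), which says little for a gene under the filter level on most arrays. Khdrbs2 and Khdrbs3 had 1 probe set each, so the mean over probe sets could not alter their values. The cause of the changes below was not tested.

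Leaving out 1 array in turn gave 1 to 4 members higher and 2 to 5 lower in the late comparison, 2 to 5 and 3 to 7 in MGE maturation, 0 to 3 and 1 to 3 in CGE maturation, 1 to 3 and 1 to 3 in the early comparison, and 1 to 2 and 1 to 3 for the difference between maturations. Over all genes the same fits gave 870 to 1243 higher and 608 to 903 lower, 691 to 1075 and 461 to 935, 149 to 442 and 225 to 765, 213 to 421 and 317 to 582, and 452 to 686 and 82 to 206. The lowest CGE maturation counts over all genes came without CGE E16.5 replicate 3.

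With array weights 6 members were higher and 4 lower in the early comparison, 7 and 14 in MGE maturation and 0 higher in CGE maturation, and all genes counted 816 and 995, 1550 and 1940, and 259 and 287, with 258 lower for the difference between maturations. With the mean over probe sets 5 members were higher in the early comparison, 10 lower in MGE maturation and 3 higher for the difference between maturations. With only the groups compared in the fit, 1 member was higher in the early comparison and 2 in the late one, and CGE maturation gave 0 higher and 1 lower, with 75 and 100 genes in all. Averaging MGE E14.5 replicates 1 and 2 gave 1 member higher and 1 lower in the early comparison and 1 lower for the difference between maturations, with 224 genes higher and 321 lower, 457 lower in MGE maturation, and 85 lower for the difference. The difference between maturations had 1 member lower with the filter at the 50th percentile and 2 higher with no filter. Quantile normalisation and median centring moved the median of all genes by under 0.1.

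With the replicate block, 1 member was higher in the early comparison in place of 2, and no other count moved past 1.5 times. The numbers did not pair the arrays: deviations of same-numbered arrays correlated at -0.17 to 0.28, those of other arrays at -0.23 to 0.30, and 5 of 12 arrays correlated best with their own number.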
